A study of Homo sapiens with 4 samples.

Results

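The low density lipoprotein receptor family is described here through 9 genes: VLDLR, LRP1, LRP1B, LRP2, LRP4, LRP5, LRP6, LRP8 and SORL1. They were measured by all 20 probe sets whose single gene symbol in the array annotation is one of these names, out of 54675 probe sets and 19775 named genes on the array. The study set RNA recovered with the fragile X protein FMRP against RNA of the starting lysate, in 2 immunoprecipitates (IP) and 2 lysates on 4 Affymetrix Human Genome U133 Plus 2.0 arrays. All samples came from human embryonic kidney cells, a stable FlpIn T-Rex HEK293 line whose transgene encodes FMRP with FLAG and HA tags, and every group was induced with 1 µg/ml doxycycline for 16 h. The lysate group is total RNA taken before the IP, and the IP group is RNA recovered with an anti-FLAG antibody and washed at 300 mM KCl. The labels name no mock IP and no uninduced cells, the bound protein is the tagged transgene product, and nothing in them says that replicates came from separate cultures. The p-values therefore measure the spread between these samples, which may be technical, and 2 arrays a group limit the precision. They, the standard errors (SE) and the intervals come from a fit (limma) that pools each gene's spread with that of all others tested. An SE given below is thus not the replicate spread of that gene alone.

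The receptors of this family are single-pass membrane proteins whose extracellular part is built from ligand-binding class A repeats, EGF-like repeats and propeller domains, and whose short cytoplasmic tails bind endocytic adaptors. LRP1, LRP1B and LRP2 are giant endocytic receptors, VLDLR and LRP8 are the receptors of the secreted brain protein reelin, and LRP5 and LRP6 are the co-receptors of Frizzled proteins in Wnt signalling. LRP4 is the agrin receptor of the neuromuscular junction, and SORL1 is a sorting receptor that carries cargo between endosomes and the Golgi. FMRP is an RNA-binding protein that associates with mRNAs and polyribosomes, and its loss causes fragile X syndrome.

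The values are log2 probe set signals as deposited, so a difference of 1 is a change of 2-fold, and array medians were nearly equal, between 4.67 and 4.71. How the authors normalized is not stated, and changes are read here as relative to the other probe sets. Across genes, which are not independent replicates, replicate arrays correlated at Pearson's r of 0.993 (lysate) and 0.992 (IP), and pairs of unlike arrays at 0.873 to 0.903. Of 6 genes that HEK293 cells are known to express, 5 were above the filter on low values, with NEFM below it. Of 11 markers of other cell types 4 were above it (HBB, PECAM1, MBP and GFAP). The median over the 11 was 4.05 and 4.13 on the lysate arrays and 4.19 and 4.62 on the IP arrays. GFAP, at a lysate mean of 4.61, was higher in the IP by 0.56 (limma adjusted p = 0.0195). PECAM1 was higher by 0.53 (adjusted p = 0.0175), while HBB and MBP did not pass. Over all genes tested 35.0% were called higher. The part of these markers in the results was not tested. The mRNA of FMRP itself, FMR1, was measured by 2 probe sets that were lower in the IP, by -0.69 (limma adjusted p = 0.0055) and -0.42 (adjusted p = 0.0363); whether they detect the transgene RNA is not known here.

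Most receptor mRNAs of this family were over-represented in the FMRP IP. Of the 9 genes, 8 had a probe set with a 4-array mean no lower than 4.70 (the median over the whole array) and were tested; LRP1B was not. The lysate means of the 8, from 6.08 to 8.89, also lay above that value. All 8 tested genes were higher in the IP (limma, Benjamini-Hochberg adjustment over 13157 genes, threshold 0.05), and for all 8 both IP arrays lay above both lysate arrays. Over all genes tested, 35.0% were called higher, 28.8% were called lower, and 45.1% had both IP arrays above both lysate arrays. A change of at least 2-fold was reached by 6 of the 8, against 12.5% of all genes. The median change of the 8 receptor genes was 1.38 on the log2 scale, and that of all genes was 0.08. Hybridization controls read 0.48 higher in the IP, and with each array centred on them the family median was 0.90 and that of all genes -0.40. The calls over all genes then moved from 4611 higher and 3790 lower to 2090 higher and 6385 lower, or 15.9% and 48.5% of genes, while 6 receptor genes remained higher and LRP6 and LRP8 did not pass.

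**Figure D1:**
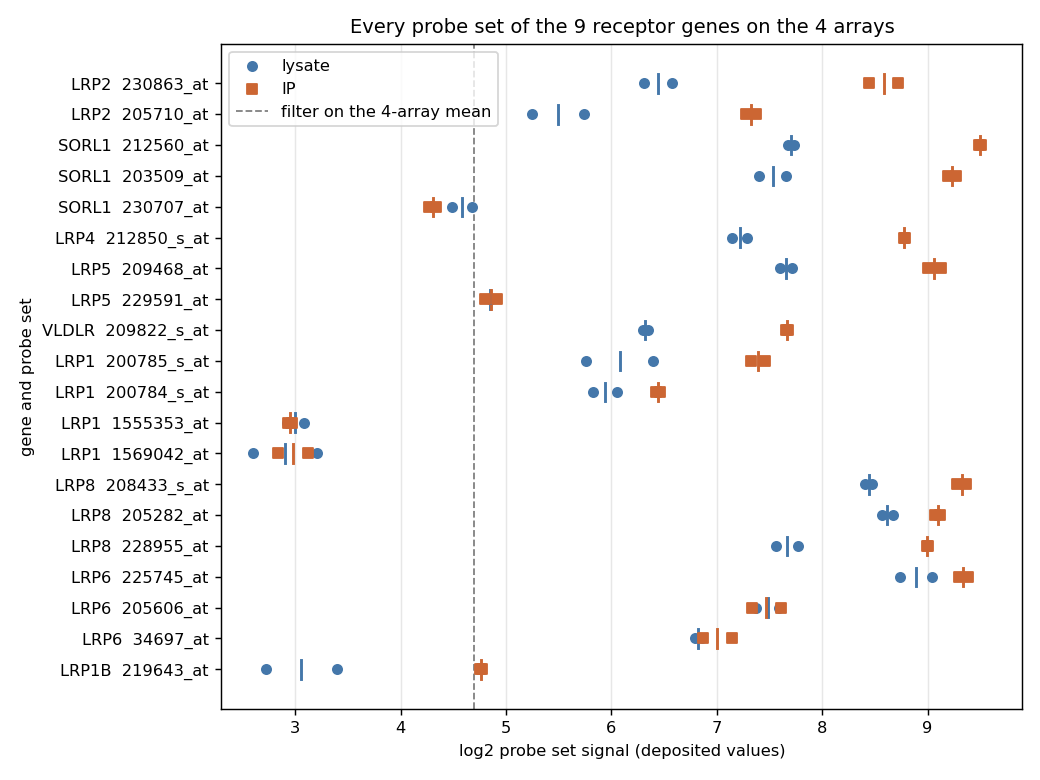
Deposited log2 signal of each of the 20 probe sets on the 2 lysate arrays (circles) and the 2 IP arrays (squares), with short lines at the group means and a dashed line at the filter value of 4.70. For 15 probe sets both IP arrays lie to the right of both lysate arrays, 4 overlap, and 1 probe set of SORL1 below the filter has its IP arrays to the left.

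Among the giant endocytic receptors tested, LRP2 had the largest change. LRP2, also called megalin, takes up filtered proteins in the kidney tubule. Its probe set 230863_at read 6.31 and 6.57 on the lysate arrays and 8.72 and 8.45 on the IP arrays. The groups were far apart compared with the spread within each: the IP mean was 4.41-fold higher (change 2.14 ± 0.15 SE, n = 2 each, limma adjusted p = 3.5e-05). The other LRP2 probe set, 205710_at, read 5.24 and 5.74 in the lysates and 7.37 and 7.28 in the IPs, a change of 1.83. Both LRP2 probe sets thus rose, and 99.6% of all genes tested had a smaller change than LRP2.

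LRP1, a receptor for protease complexes and remnant lipoproteins, was higher in the IP with a wide lysate spread. Probe set 200785_s_at read 6.40 and 5.75 in the lysates and 7.46 and 7.33 in the IPs, so lysate replicate 2 was the low array (change 1.32, 95% interval 0.84 to 1.79, 2.49-fold, limma adjusted p = 8.0e-04). A smaller change of 0.50 was seen with 200784_s_at, at 5.83 and 6.06 against 6.46 and 6.43 (limma over 27281 probe sets, adjusted p = 0.0146). That second probe set no longer differed with hybridization control centring, at 0.02. The remaining LRP1 probe sets, 1555353_at and 1569042_at, stood between 2.60 and 3.20 on every array with overlapping groups, below the filter.

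LRP1B, the close relative of LRP1, had 1 probe set, which fell below the filter with a 4-array mean of 3.91. It read 3.40 and 2.72 in the lysates and 4.77 and 4.76 in the IPs. Both IP values lay above both lysate values, and the lysate values lay below the array medians, in a range without a known detection floor, so its fold is not printed.

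The reelin receptors were both higher in the IP, VLDLR by the larger value with each gene taken by its brightest probe set. VLDLR, which also binds triglyceride-rich lipoproteins, had the single probe set 209822_s_at, at 6.35 and 6.30 in the lysates and 7.68 and 7.66 in the IPs. Replicates differed little here, and the IP mean was 2.54-fold higher (change 1.35 ± 0.11 SE, n = 2 each, limma adjusted p = 5.2e-05). LRP8, also called ApoER2, was represented by 208433_s_at, at 8.47 and 8.41 against 9.37 and 9.28, 1.84-fold higher in the IP (change 0.88 ± 0.12 SE, limma adjusted p = 3.4e-04). Its other probe sets differed in size: 228955_at read 7.77 and 7.57 against 8.995 and 9.002, a change of 1.33. Probe set 205282_at read 8.67 and 8.56 against 9.07 and 9.11, a change of 0.48. All 3 LRP8 probe sets passed and had both IP arrays above the lysate arrays, although with hybridization control centring only 228955_at passed, at 0.85.

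The difference between the VLDLR and LRP8 changes, each by the brightest probe set, was 0.46. Taken within each array, VLDLR minus LRP8 was -2.12 and -2.11 in the lysates and -1.69 and -1.62 in the IPs. The groups did not overlap, but an exact permutation test over 4 arrays cannot go below its p of 0.333 (two-sided, 2 pairs tested, adjusted p = 0.333). By its probe set 228955_at, LRP8 changed by 1.33, close to the 1.35 of VLDLR.

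Of the Wnt co-receptors, LRP5 had the larger change in value. LRP5, known for its part in bone mass, was represented by 209468_at at 7.60 and 7.72 in the lysates and 9.0 and 9.13 in the IPs. The IP arrays were well above the lysates, by 2.65-fold (change 1.41 ± 0.12 SE, n = 2 each, limma adjusted p = 5.7e-05). The second LRP5 probe set, 229591_at, stood at 4.85 and 4.85 against 4.91 and 4.80, near the array medians, with a change of 0.01 and a 95% interval of -0.28 to 0.29. That probe set was called lower, at -0.47, under hybridization control centring, while 209468_at stayed higher at 0.93.

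LRP6, the other Wnt co-receptor and close relative of LRP5, had the smallest change of the genes tested, each taken by its brightest probe set. Its probe set 225745_at read 9.05 and 8.74 in the lysates and 9.38 and 9.29 in the IPs. The lysate values were the more scattered, and the change of 0.45 passed (95% interval 0.12 to 0.77, limma adjusted p = 0.0233) but turned to -0.03 with hybridization control centring. It did not pass without lysate replicate 2 (0.29, adjusted p = 0.136) or without IP replicate 1 (0.40, adjusted p = 0.0665); in fits without 1 array the lone array of a group is assumed to vary like the other group. Probe set 34697_at read 6.86 and 6.79 against 6.87 and 7.14 and did not pass (0.18, adjusted p = 0.302). Probe set 205606_at, with overlapping values of 7.38 and 7.59 against 7.34 and 7.60, did not pass either (-0.01, 95% interval -0.36 to 0.34). Under hybridization control centring 205606_at was called lower at -0.49. The LRP5 change exceeded that of LRP6 by 0.96: LRP5 minus LRP6 was -1.45 and -1.02 in the lysates and -0.38 and -0.16 in the IPs, with the same smallest exact permutation p of 0.333. That order turned with the lowest kept probe set of each gene, where LRP5 stood at 0.01 and LRP6 at 0.18.

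LRP4 and SORL1 were both strongly over-represented in the IP. LRP4 had 1 probe set, 212850_s_at, at 7.14 and 7.29 in the lysates and 8.77 and 8.79 in the IPs. This was 2.95-fold (change 1.56 ± 0.12 SE, n = 2 each, limma adjusted p = 4.0e-05), with almost equal IP arrays. SORL1, which combines class A repeats with a VPS10 domain, was represented by 212560_at at 7.68 and 7.73 in the lysates and 9.49 and 9.51 in the IPs. Its IP mean was 3.46-fold higher (change 1.79 ± 0.11 SE, n = 2 each, limma adjusted p = 3.4e-05). The second SORL1 probe set, 203509_at, read 7.40 and 7.66 against 9.19 and 9.27, a change of 1.70, close to the first. The third, 230707_at, was below the filter at 4.68 and 4.49 against 4.34 and 4.27, with a difference of -0.28 that did not pass in the fit without a filter (limma adjusted p = 0.232).

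Ordered by the change of their brightest probe sets, the genes ran LRP2, SORL1, LRP4, LRP5, VLDLR, LRP1, LRP8 and LRP6. In each of the 7 neighbouring pairs of that order the 95% intervals overlapped. They were apart in 12 of all 28 pairs, of which 6 held LRP6 and 5 held LRP2. RNA levels are not compared between genes, since hybridization efficiency differs between probe sets. Of the 16 kept probe sets of the family 13 were called higher, none lower and 3 did not pass, where 31.5% of all 27281 probe sets kept were called higher and 28.0% lower. Both IP arrays lay above both lysate arrays for 14 of the 16, against 42.7% of all kept. The 3 were 1 probe set of LRP5 and 2 of LRP6. VLDLR and LRP4 rest on single probe sets, and those, with 208433_s_at of LRP8 and both kept probe sets of LRP1, have the _s_ suffix of designs that can detect more than 1 transcript.

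**Figure D2:**
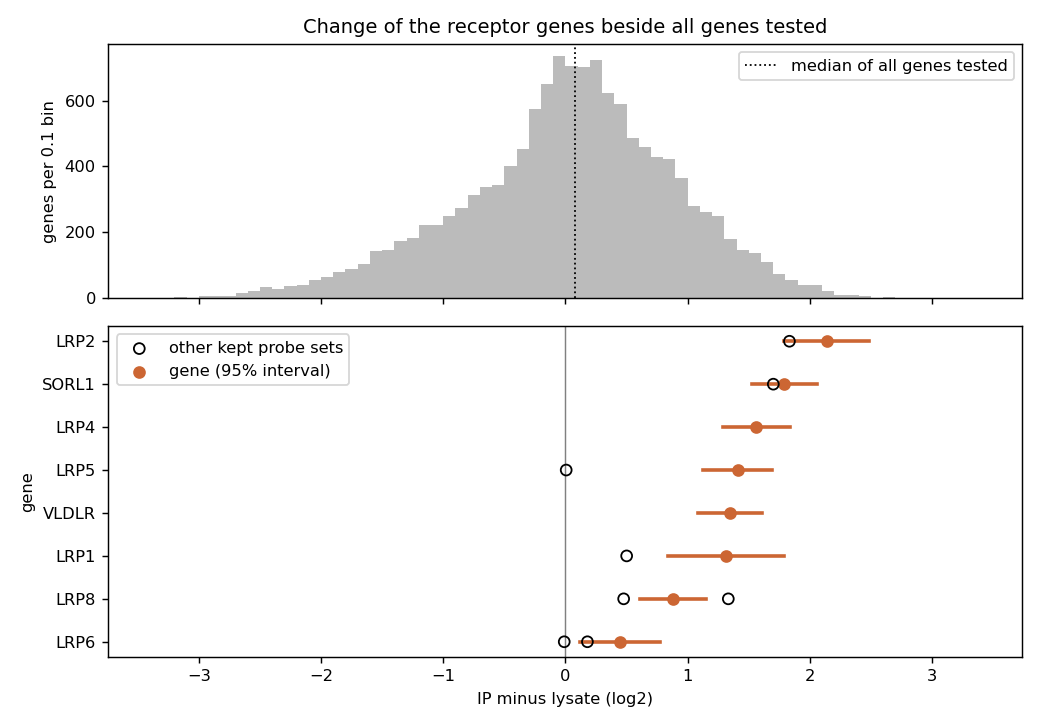
Top, histogram of the IP minus lysate change (log2) of all 13157 genes tested, in bins of 0.1, with the median of 0.08 as a dotted line. Bottom, the 8 receptor genes tested with their 95% limma intervals (filled) and their other kept probe sets (open): LRP2 lies farthest right at 2.14, and LRP6 at 0.45 has its other probe sets near 0.

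The receptors were also set beside genes of similar array signal, as a description; equal signal does not mean equal RNA level. Among genes within 0.25 of a receptor's 4-array mean, 1033 to 1313 genes for each receptor, the median change was between 0.07 and 0.14, and 34.8% to 42.8% were called higher. LRP2 exceeded 99.5% of its band, SORL1 97.7%, LRP4 96.4%, VLDLR 95.9%, LRP1 94.8% and LRP5 92.8%. LRP8 exceeded 79.4% and LRP6 61.8% of theirs.

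The 8 receptor genes tested have genomic spans above the median of 28.6 kb, and over the array changes shifted upward with span. Genomic spans in the GRCh38.p14 gene table ran from 38.3 kb for VLDLR to 235.4 kb for LRP2 among the 8 tested, and LRP1B spans 1900 kb. Over 13145 genes with a span, Spearman's rho between span and change was 0.23, a description across genes that share the 4 arrays. The median change rose from -0.10 in the class of the shortest genes, up to 11.0 kb, to 0.45 in the class of the longest, above 157.2 kb, where 54.0% were called higher. LRP2 and SORL1 lay in that longest class, above its upper quartile of 1.01. VLDLR and LRP4 lay in the class from 28.6 to 71.5 kb, with a median of 0.15 and an upper quartile of 0.72. LRP1, LRP5, LRP6 and LRP8 lay in the class from 71.5 to 157.2 kb, with a median of 0.22 and quartiles of -0.33 and 0.81. LRP6 was within those quartiles, and the other receptors of that class were above the upper one. LRP6 and LRP5 have nearly equal spans, 151.0 and 150.9 kb, with changes of 0.45 and 1.41. Span counts introns and is not transcript length, whose part in these changes was not tested.

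**Figure D3:**
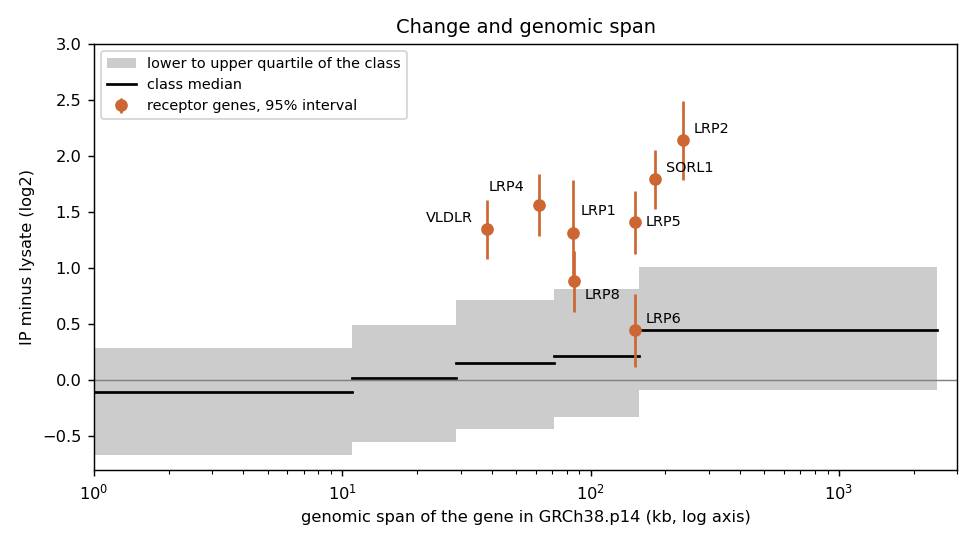
IP minus lysate change (log2) against genomic span (kb, log axis) for the 8 receptor genes with 95% limma intervals, over the median (black line) and the range from lower to upper quartile (grey) of all genes in 5 span classes. LRP6 lies within the grey band of its class and LRP8 just above it, and LRP2 and SORL1 lie above the band of the longest class.

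Genes of the receptors' pathways held calls in both directions. In the reelin pathway and adaptor list, 14 of 16 measured genes were tested, of which 7 were higher, 2 lower and 5 did not pass, with a median change of 0.45. Over all genes 35.0% were higher and 28.8% lower. RELN, the reelin ligand, read 4.79 and 5.17 in the lysates and 5.97 and 5.95 in the IPs (change 0.98, limma adjusted p = 7.2e-04). PAFAH1B1, the LIS1 gene of dynein regulation, rose by 1.47, with other probe sets between 0.63 and 0.79, and FYN, a kinase of the pathway, rose by 1.13, with other probe sets at 0.75 and 1.55. The endocytic adaptor genes DAB2 and GULP1 fell by 0.90 and by 1.06 on the log2 scale. Their other probe sets also passed, from -1.25 to -0.64 for DAB2 and at -1.55 and -1.57 for GULP1. GULP1 did not pass without lysate replicate 1 (-0.93, adjusted p = 0.057), which left 1 lower gene in the list. DAB1, the reelin adaptor, was below the filter at a 4-array mean of 4.24. The split was 5 higher and 6 lower with hybridization control centring, where 15.9% of all genes were higher and 48.5% lower.

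Of 13 ligand and chaperone genes tested, 11 rose, 1 fell and 1 missed the threshold, with a median of 0.73, beside 35.0% higher and 28.8% lower over all genes. AGRN, the LRP4 ligand agrin, read 8.67 and 8.80 in the lysates and 10.31 and 10.42 in the IPs (change 1.63, limma adjusted p = 3.7e-05). Its probe set 217419_x_at changed by 1.66, but 212283_at and 217410_at stood at -0.36 and -0.08 without passing. HSP90B1, an endoplasmic reticulum chaperone, changed by 1.85 with a probe set that can cross-hybridize, and the growth factor gene MDK fell by 1.08 on the log2 scale. LRPAP1, the chaperone that keeps ligands off these receptors, rose by 0.66 (limma adjusted p = 0.0124), which did not pass without lysate replicate 1 (0.45, adjusted p = 0.0823) or with hybridization control centring (0.18). The other LRPAP1 probe sets rose by 0.74 and 0.81 and passed. MESD, the chaperone of LRP5 and LRP6, did not pass at 0.08 (95% interval -0.21 to 0.37), and its other probe sets ranged from -0.11 to 0.94. Of those, only 238679_at passed, at 0.94 (limma adjusted p = 8.5e-04). The list had 5 higher and 1 lower with hybridization control centring (all genes 15.9% and 48.5%).

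In the Wnt receptor complex list, 15 of 33 tested genes were higher, 7 lower and 11 did not pass, with a median of 0.23. For all genes the shares were 35.0% higher and 28.8% lower, and no difference of the list from them was tested. AXIN1, the scaffold that binds LRP5 and LRP6 tails, rose by 1.71 and the co-receptor gene ROR2 by 1.54. FZD3, a Frizzled receptor, fell by 1.06 on the log2 scale, with other probe sets from -1.91 to -1.35, and the kinase gene CSNK1A1 fell by 0.82, with other probe sets from -1.70 to -0.46. DKK1, the secreted antagonist of LRP5 and LRP6, read 4.71 and 4.79 against 4.59 and 5.32 and did not pass. Its IP arrays disagreed: against the lysates, IP replicate 2 alone gave 0.57 and IP replicate 1 alone -0.16. The first of these passed (limma adjusted p = 0.0082), with the lone IP array assumed to vary like the lysates. With hybridization control centring the Wnt list split into 6 higher and 14 lower genes, beside 2090 higher and 6385 lower of 13157.

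Sorting and coat genes held calls in both directions, as did all genes (35.0% higher and 28.8% lower). Of 14 tested genes in the list for VPS10 receptors and retromer, 6 were higher and 6 lower (median 0.15). None of the tested genes encodes a VPS10 receptor. SORCS1, SORCS2 and SORCS3 were below the filter, at 4-array means of 3.32, 4.44 and 2.60, and SORT1 had no probe set of its own. The Golgi adaptor genes GGA2 and GGA3 rose by 1.85 and 1.26, although other GGA2 probe sets ran from -0.07 to 1.21 and the other GGA3 probe set stood at 0.08. SNX3 and the retromer subunit gene VPS29 were lower, at -2.28 and -2.12, with other probe sets from -2.77 to -2.14 for SNX3 and at -0.83 for VPS29. Every SNX3 probe set has the _x_ suffix of designs that can cross-hybridize. VPS35, the core retromer subunit, did not pass at 0.12, with other probe sets from -0.57 to 0.46. Those passed in opposite directions: 222387_s_at was lower at -0.57 (limma adjusted p = 0.0236) and 233864_s_at higher at 0.46 (adjusted p = 0.0130). Probe set 222388_s_at did not pass, at -0.13. Of 24 clathrin and AP2 genes, 14 were higher and 5 lower (median 0.49). The AP2 subunit gene AP2A2 rose by 1.42 and the kinase gene GAK by 1.39, while FCHO2 and the small AP2 subunit gene AP2S1 were lower at -1.95 and -1.53. The probe sets that represent AP2A2, AP2S1, VPS35, DAB2 and CSNK1A1 also have the _x_ suffix. With hybridization control centring these lists had 2 higher and 6 lower, and 6 higher and 7 lower, where all genes had 15.9% and 48.5%.

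Other receptors that carry class A repeats also held calls in both directions. Of 8 tested, 4 were higher, 2 lower and 2 did not pass, with a median of 0.40, beside 35.0% and 28.8% of all genes higher and lower. Whether they differ from the family was not tested. DGCR2 rose by 1.76, while its other probe sets stood at 0.26 and 0.08. All 3 LRP10 probe sets rose, by 0.89, 0.96 and 1.32. LDLRAD3 and CD320, the transcobalamin receptor gene, fell by 1.13 and by 0.73 on the log2 scale. The split was 3 and 3 with hybridization control centring (all genes 15.9% and 48.5%).

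**Figure D4:**
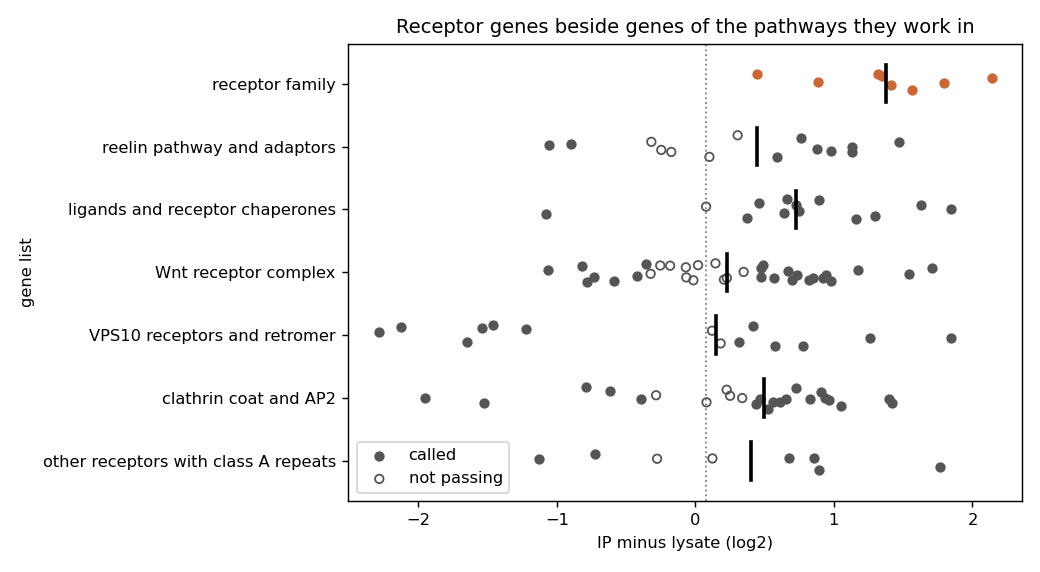
IP minus lysate change (log2) of each gene tested in the receptor family and in 6 lists of related genes, with called genes filled, genes that did not pass open, black bars at the list medians and a dotted line at the median of all genes. The family median of 1.38 lies to the right of the other medians, which run from 0.15 to 0.73.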

How the data were processed

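RNA from 2 lysates and 2 IPs was labelled (2 µg each) and hybridized to 1 array per sample, per the labels. The range of the deposited values fits log2 signals per probe set. How the authors corrected the background, summarised probes and normalized is not given in the sources. Detection calls were not used here. The array holds 54675 probe sets: 62 controls, 41091 with 1 gene symbol, 1801 with several and 11721 with none. Symbols were updated by Entrez number for 41037 of them from the GRCh38.p14 table.

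Probe sets with a 4-array mean of at least 4.70 were kept, and a gene was represented by its kept probe set with the highest mean. The difference between IP and lysate was estimated in R 4.3.3 by limma 3.58.1 (lmFit, eBayes, no covariate, 2 residual and 5.51 prior degrees of freedom) over 13157 genes, and over 27281 probe sets, with Benjamini-Hochberg adjustment. The fit was tested on simulated data over 13157 genes. It recovered 1 of 50 true changes of 0.5, 25 of 50 of 1, 45 of 50 of 2 and 48 of 50 of 3, with 7 false calls. Only 50 genes of each size changed in the simulation, whereas 8401 of 13157 genes were called in the data. Adjusted p-values depend on that share, so these recovery rates do not carry over to the data. Figures used matplotlib 3.10.9 and pandas 2.3.3.

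The members and lists were chosen with earlier results of these data known. Named genes are all members and, per list, the called genes with the 2 largest rises and 2 largest falls, plus RELN, DAB1, LRPAP1, MESD, AGRN, DKK1, VPS35 and DAB2. The rule also named the gene nearest to each member by signal on the 4 arrays; it is not reported, since signals of different probe sets are not comparable as levels. Genomic span and signal bands were added after the data were seen. A planned comparison with protein length was not run, since no protein table was used here. Alternatives covered normalization, filter, probe set choice, replicate block, spread estimate, threshold and leaving out arrays.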

Additional observations from a re-analysis of the deposited data

How the results depend on the processing

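Replicate numbers are shared between lysate and IP labels, but nothing says that they mark a shared culture; same-numbered deviations correlated at 0.10. With the replicate number as a block, 8598 genes were called, the family still had 8 higher genes, and no call of a receptor gene changed. Across the alternatives run, LRP1, LRP2, LRP4, SORL1 and VLDLR kept their direction and call wherever they were tested. LRP5 lost its call with the lowest kept probe set of each gene (0.01), an alternative chosen after seeing the data, and LRP8 with hybridization control centring (0.40, adjusted p = 0.0531). LRP6 lost its call in 6 alternatives, among them no filter (adjusted p = 0.0683), the mean of kept probe sets (0.21) and the threshold of 0.01, and reversed in 1, hybridization control centring (-0.033). The family median was 0.90 with hybridization control centring and 1.13 with the mean of kept probe sets; without 1 array it ran from 1.37 to 1.43, with 7 to 8 receptor genes and 11 to 13 probe sets called. With probe sets lacking _s_, _x_ or _a_ only, 5 receptor genes were tested and 5 called, because VLDLR, LRP4 and LRP1 had no such kept probe set; the calls were then 5 for ligands and chaperones, 7 for VPS10 receptors and retromer, 9 for clathrin and AP2 and 0 for the agrin, MuSK and cubilin list, which held AGRN as its 1 tested gene (-0.36 there, adjusted p = 0.0979). With hybridization control centring 6 ligand and chaperone genes were called, and MESD, DKK1 and VPS35 turned to -0.40, -0.27 and -0.36. With the lowest kept probe set AGRN (-0.079), GGA2 (-0.066) and VPS35 (-0.57) reversed and 0 genes of the agrin list were called; VPS35 was -0.029 with the mean of kept probe sets. Without 1 array, MESD ran from -0.021 to 0.18 and DKK1 from -0.16 to 0.57. In fits without 1 array the lone array of a group is assumed to vary like the other group. Hybridization control centring lowers every change by the same 0.48, and the lowest kept probe set puts another probe set in place of the brightest. The causes of the other shifts between alternatives were not tested. Signal near or below the array medians limits LRP1B, DKK1 and the second LRP5 probe set. The lysate values of RELN, 4.79 and 5.17, were also near those medians.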

Other observations

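Probe sets of 1 gene can give different changes over the whole array. Among 6240 other genes with at least 2 kept probe sets, the median range of change within a gene was 0.38 for the 3624 with 2 probe sets and 0.65 for the 1636 with 3. The range was 0.09 for SORL1, 0.31 for LRP2, 0.81 for LRP1 and 1.40 for LRP5, each with 2 kept probe sets, and 0.46 for LRP6 and 0.86 for LRP8 with 3. Every kept probe set was called higher in 4 of these 6 receptor genes, and in 50.4% of the 2475 other genes called higher.

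Most genes of the agrin, MuSK and cubilin list were below the filter. MUSK, RAPSN and CUBN had 4-array means of 3.02, 3.27 and 3.37, and DOK7, a muscle adaptor gene, had 4.09.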
